A study of Gallus gallus with 4 samples.

Results

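Nuclei of embryonic chicken feathers that carried little globin RNA were compared between day 14 and day 13 of incubation. Members were nuclei of the 2 nuclear libraries of plucked feathers with at least 300 detected genes, at most 10% of UMIs from 13 mitochondrial genes and under 10% of UMIs from 7 globin genes. A UMI (unique molecular identifier) counts 1 captured transcript. The rule gave 7246 nuclei of the 67513 barcodes of the 4 libraries in the series, with 4322 nuclei at day 14 and 2924 at day 13.

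The day 14 library came from white leghorn embryos at Hamburger and Hamilton stage 40, whose feathers were plucked along the dorsal midline, and the day 13 library from the same site at stage 39. Both were single-nucleus preparations with 1 library per age, so age cannot be told apart from anything else that differed between the preparations, and no p-value was computed. The labels name no mutation or drug treatment. The 2 remaining libraries of the series, both of whole cells at day 12, were not compared here.

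A feather grows from a bud as a tube of epidermis around a vascular dermal pulp. Inside that tube the epidermis folds into barb ridges, where SHH and BMP signalling help to pattern the future barbs, and the ridge cells then differentiate into the keratinocytes that form barbs and barbules. Maturing feather keratinocytes fill with feather keratins, also called corneous beta-proteins, and express proteins of the epidermal differentiation complex (EDC), a gene cluster whose products build cornified cells. Embryonic chicken erythrocytes keep their nucleus and are rich in globin RNA, which is why globin was used to set them aside.

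The nuclei held 17067224 UMIs outside globin and mitochondrial genes at day 14 and 15853004 at day 13. The median nucleus had 3323.5 UMIs and 1412 genes at day 14, against 3661 UMIs and 1686.5 genes at day 13. Median mitochondrial share was 0.644% at day 14 and 1.94% at day 13. Barcodes with more than 20000 UMIs numbered 32 at day 14, where they held 5.44% of UMIs, and 104 at day 13, where they held 23.1%. The libraries shared 176 of their deposited barcodes. The globin limit fell inside a continuum: 408 nuclei at day 14 and 387 at day 13 lay within 1 point below it, and 414 and 357 barcodes lay within 1 point above it in the same libraries. Scrublet marked 824 of the nuclei (19.07%) at day 14 and 138 (4.72%) at day 13 as possible doublets. None was removed.

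As a guide to free RNA in the droplets, levels were read in barcodes in which globin made up at least 50% of UMIs. They numbered 5897 at day 14 and 6424 at day 13. Epithelial markers summed to 2584 CPM at day 14 and 3848 CPM at day 13 in the nuclei under 10% globin (CPM, UMIs scaled to a common total outside globin and mitochondrial genes), and still to 673 and 1928 CPM in the majority-globin barcodes of the same libraries. Erythroid markers other than globin went the other way, with 704 CPM at day 14 and 422 CPM at day 13 in the nuclei under 10% globin, against 15861 and 12150 CPM in majority-globin barcodes. Levels in majority-globin barcodes are given beside several genes below, and their part in the differences was not tested. They hold the RNA of erythroid nuclei as well as free RNA, and the subtraction used below takes away both. A gene below those levels in both libraries has no ratio once they are subtracted.

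Epithelial markers led in most nuclei. Nuclei with at least 2 UMIs of epithelial markers, and more of these than of any other class, made up 59.5% (95% exact binomial interval 58.0 to 60.9%) of the 4322 nuclei at day 14 and 69.0% (67.3 to 70.7%) of the 2924 at day 13. Mesenchymal markers, which mark the dermal pulp, led in 12.6% (11.7 to 13.7%) at day 14 and 18.6% (17.2 to 20.1%) at day 13. Endothelial markers led in 3.22% at day 14 and 2.80% at day 13, melanocyte markers in 5.71% and 2.63%, and leukocyte markers in 5.55% and 2.09%. No class led in 9.67% of nuclei at day 14 and 3.04% at day 13. These shares depend on how many marker UMIs a nucleus has, and the median was 2275.5 UMIs at day 14 and 2531 at day 13 among nuclei with no leading class. Majority-globin barcodes also held epithelial markers, at 673 CPM at day 14 and 1928 CPM at day 13. A leading class therefore does not by itself show the type of a nucleus. Some genes reported below were themselves markers, among them KRT5, KRT14, DSP, TP63, EHF and GRHL3 (epithelial) and COL1A1 (mesenchymal). Values of such genes by marker class are drawn partly from the counts that set the class. The part of free RNA in these classes, and in later values by marker class, was not tested. Intervals here and below cover counting error only.

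Expression was then compared over the summed nuclei of each library. The ratio of a gene was the log2 of its CPM at day 14 over its CPM at day 13, with 10 CPM added to both, which understates changes of low genes. The median gene had a log2 ratio of -0.24, and every ratio below is relative to that median. Of 6717 genes with a mean of at least 20 CPM over both libraries, 650 (9.68%) were at least 1.5-fold higher at day 14 and 311 (4.63%) at least 1.5-fold lower. A gene low in 1 library could reach this minimum through the other library alone. At 2-fold the counts were 231 (3.44%) and 48 (0.715%). Without setting ratios relative to the median gene, 341 genes were higher and 897 lower, so the split between directions follows the scaling. In nuclei with epithelial markers 598 were higher and 375 lower of 6536. After subtraction of majority-globin levels 613 were higher and 394 lower of 3305. The shares of 9.68% and 4.63% given beside gene lists below hold for the main setting only. Fewer nuclei of a type and less RNA per nucleus cannot be told apart in sums over nuclei.

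**Figure D1:**
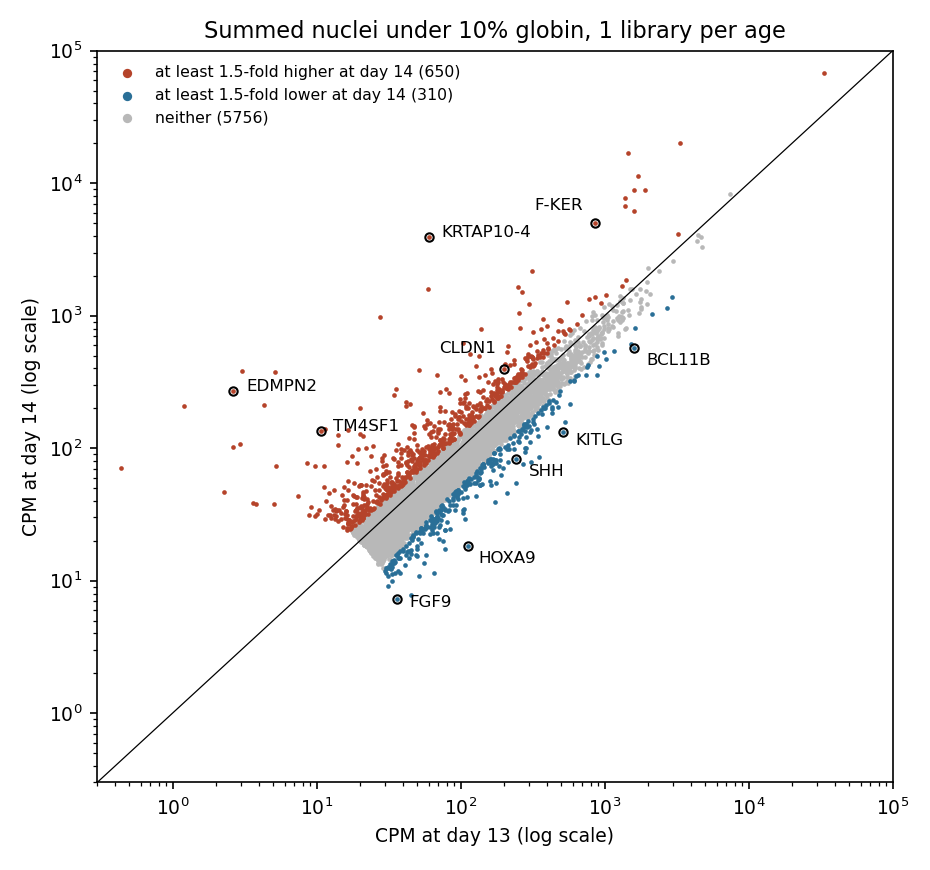
Each point is 1 of the 6717 genes compared, with its CPM at day 14 on the vertical axis and at day 13 on the horizontal axis (both log scales). The line marks equal CPM, and KRTAP10-4, F-KER and EDMPN2 lie far above it while HOXA9, KITLG, SHH and BCL11B lie below it.

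The clearest difference lay in feather keratins and EDC genes. Of the 51 symbols of this list, 34 had no entry in the files. Of its 22 entries, 11 reached the minimum of 20 CPM, and 10 of these were at least 1.5-fold higher at day 14, against 9.68% of all genes. None was lower, and the median relative log2 ratio of the 11 was 2.44, the value of an FK21 entry. EDMPN2 and both FK21 entries had at most 2.65 CPM at day 13. They reached the minimum only through day 14, which fixed their call as higher. With a minimum of 50 CPM 8 members were higher. All 22 entries together took 1.11% of UMIs at day 14 and 0.152% at day 13. In nuclei with epithelial markers alone, 10 members were again higher, against 598 of all 6536 genes compared there.

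KRTAP10-4, which carries the name of a human keratin-associated protein gene, had 66744 UMIs at day 14, or 3911 CPM (95% Poisson interval 3881 to 3940.4), against 955 UMIs at day 13, or 60.2 CPM (56.5 to 64.2). Its relative log2 ratio of 6.04 (interval 5.95 to 6.13) was the highest among genes with a symbol that kept their direction under all 15 other processing settings. F-KER, a feather keratin, had 5051 CPM at day 14 (5017 to 5085), against 863 CPM at day 13 (848 to 877), a ratio of 2.77 (interval 2.74 to 2.81). These 2 genes held 81.0% of the list's UMIs at day 14 and 60.9% at day 13.

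EDMPN2, an EDC gene, was measured at 271 CPM at day 14, against 2.65 CPM at day 13. These levels rested on 4617 UMIs at day 14 and 42 at day 13, and the ratio was 4.71 (interval 4.57 to 4.84). The 2 entries named FK21, both feather keratins, had 102 CPM at day 14, against 2.65 CPM at day 13, and 46.6 CPM at day 14, against 2.27 CPM at day 13. Feather keratin genes are near-identical copies of each other, so how reads were divided among these entries is uncertain. S100A12, a calcium-binding S100 protein of the EDC region, had 389 CPM at day 14, against 51.6 CPM at day 13 (ratio 2.93). EDMTFH, a histidine-rich EDC protein, had 221 CPM at day 14, against 42.1 CPM at day 13 (ratio 2.39). EDQM3, another EDC protein, had 799.9 CPM at day 14, against 363 CPM at day 13 (ratio 1.36). S100A11 was the member not past 1.5-fold, at 90.3 CPM at day 14, against 70.0 CPM at day 13 (ratio 0.56).

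Keratin RNA was spread unevenly over nuclei. The list took a median of 0.221% of a nucleus's UMIs at day 14 and 0.0421% at day 13. At the 90th percentile of nuclei it took 3.34% at day 14 and 0.252% at day 13, and the highest nucleus held 14.2% and 4.15%. The 90th percentile at day 14 lay above the 99th percentile at day 13.

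**Figure D2:**
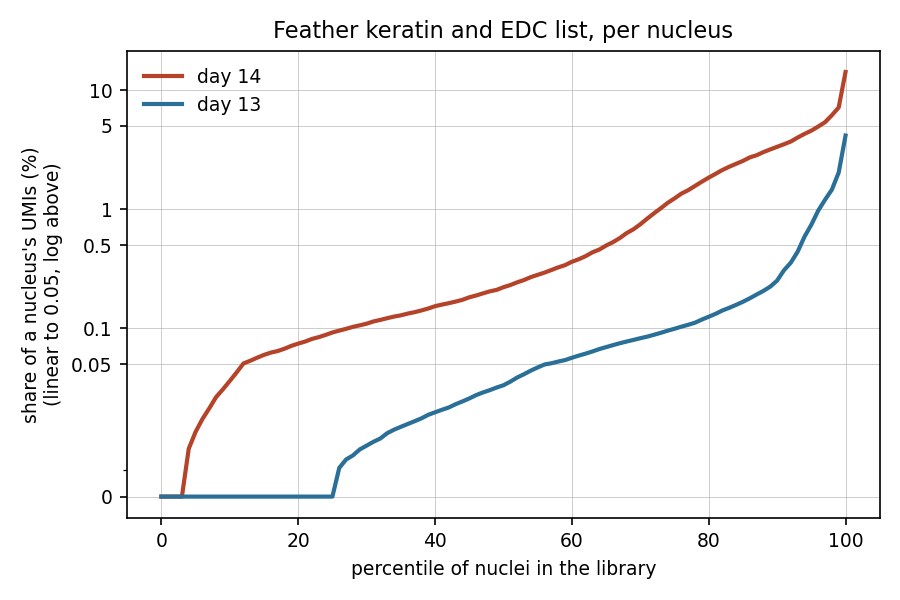
Share of a nucleus's UMIs from the feather keratin and EDC list (vertical axis, percent, linear to 0.05 and logarithmic above) by percentile of nuclei (horizontal axis), for day 14 and day 13. The day 14 curve lies above the day 13 curve from the 4th percentile on, at 0.221% against 0.0421% for the median nucleus.

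Part of this RNA was also found in barcodes that should lack it. With every nucleus thinned to 1000 UMIs, which left out 15 nuclei at day 14 and 6 at day 13, KRTAP10-4 had a UMI in 55.5% of nuclei at day 14 and 4.87% at day 13 (77.7% and 13.1% unthinned). Thinning majority-globin barcodes the same way kept 3678 of 5897 at day 14 and 4378 of 6424 at day 13. In those kept, the shares were 44.5% at day 14 and 2.79% at day 13. F-KER was seen in 60.2% of nuclei at day 14 and 23.4% at day 13, against 47.9% and 21.7% of majority-globin barcodes. For KRTAP10-4 the summed level separated them more at day 14 but not at day 13. The nuclei under 10% globin held 3911 CPM of it at day 14 and 60.2 CPM at day 13. Majority-globin barcodes held 1097 and 35.7 CPM. The whole list summed to 2779 CPM at day 14 and 715 CPM at day 13 there, against 11061 and 1516 CPM in the nuclei under 10% globin. Nuclei with mesenchymal markers also held the list, at 7727 CPM at day 14 and 766 CPM at day 13, against 11548 and 1769 CPM in nuclei with epithelial markers. It reached 10904 CPM at day 14, against 952 CPM at day 13, in nuclei with endothelial markers, and 19060.0 against 2128 CPM in nuclei with no leading class.

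The 15 highest ratios with a symbol also held genes outside the keratin and EDC list. FABP5, the epidermal fatty acid-binding protein, had 281 CPM at day 14, against 35.8 CPM at day 13 (ratio 2.91). TGM6, a transglutaminase, an enzyme class that cross-links proteins, had 356 CPM at day 14, against 68.6 CPM at day 13 (ratio 2.46). TM4SF1, a membrane protein of the transmembrane 4 superfamily, had 135 CPM at day 14, against 10.7 CPM at day 13 (ratio 3.05). ANO1, a calcium-activated chloride channel, had 627 CPM at day 14, against 104 CPM at day 13 (ratio 2.72). HEPHL1, a copper-dependent ferroxidase, and PNPLA4, a patatin-like lipid hydrolase, had ratios of 2.49 and 2.31. COPA, a subunit of the vesicle coatomer, had 1636 CPM at day 14, against 249 CPM at day 13 (ratio 2.91). In the order of RefSeq genes it lies directly beside S100A11. Whether reads of neighbouring genes were counted to it was not tested. ANKH, a pyrophosphate transport protein, had 789.8 CPM at day 14, against 139 CPM at day 13, but 814 and 642 CPM in majority-globin barcodes, which left no ratio once those levels were subtracted.

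**Figure D3:**
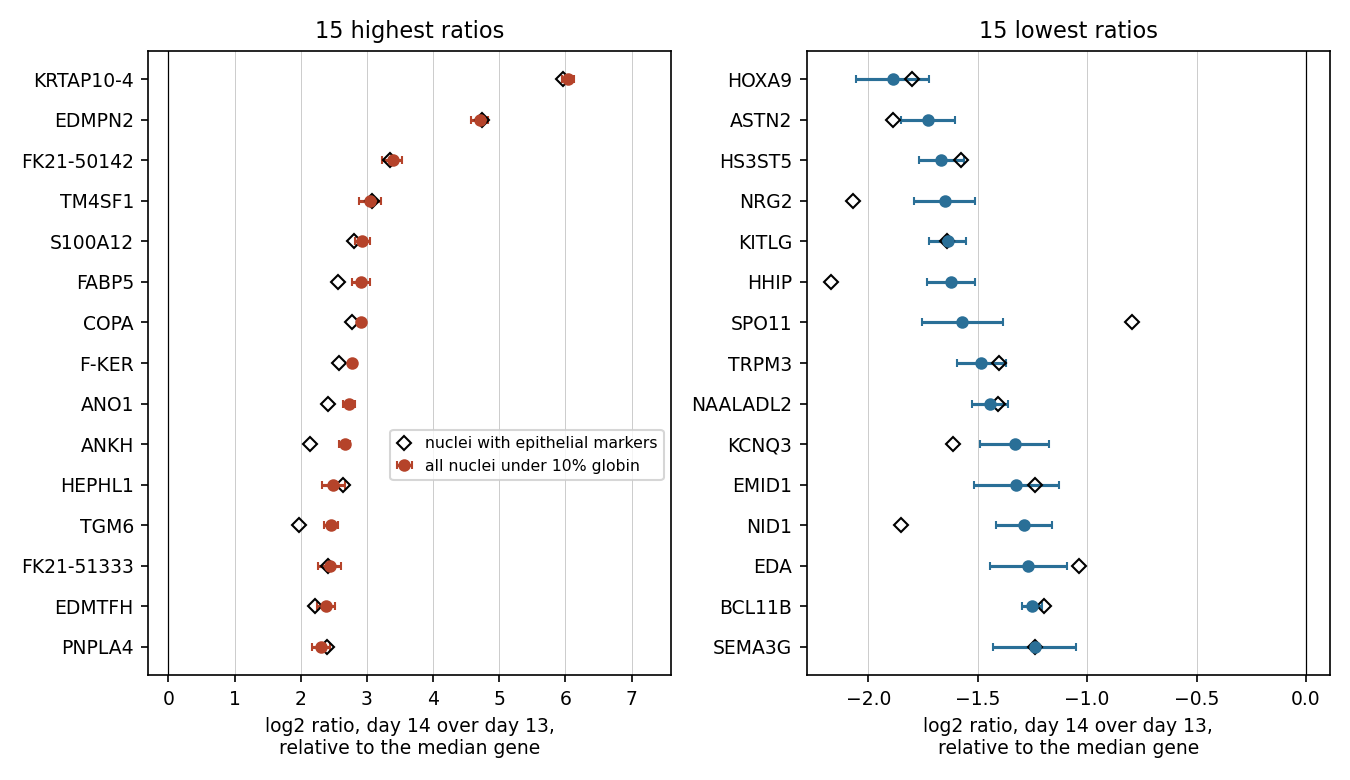
The 15 highest (left) and 15 lowest (right) relative log2 ratios, day 14 over day 13, among genes with a symbol that kept their direction under 15 other processing settings. Filled points show all nuclei under 10% globin with 95% counting intervals and open diamonds the nuclei with epithelial markers, and the 2 FK21 entries carry the end of their Ensembl IDs. SPO11 differs most between the 2 sets, at -1.57 and -0.79.

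Genes without a symbol were 739 of the 6717 genes compared. They made up 131 of the 650 higher and 39 of the 311 lower genes, 35 of the 60 highest ratios and 8 of the 60 lowest. Among them, 15 higher genes with at least 1000 CPM at day 14 took 16.4% of UMIs at day 14 and 5.00% at day 13. The largest, ENSGALG00000050132, had 68324 CPM at day 14, against 33619.7 CPM at day 13, and 57769.5 and 63577 CPM in majority-globin barcodes. ENSGALG00000028843 had 20053 CPM at day 14, against 3335 CPM at day 13 (ratio 2.82). The files give these IDs no name, and no function is assigned to them here.

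Some barrier lipid genes were higher at day 14. In the list of cornified envelope and barrier lipid genes, 12 of 24 entries reached the minimum, of which 4 were at least 1.5-fold higher, against 9.68% of all genes, none was lower, and the median ratio was 0.43. UGCG, which makes glucosylceramide for the skin barrier, had 185 CPM at day 14, against 55.0 CPM at day 13 (ratio 1.83, interval 1.70 to 1.96). STS, the steroid sulfatase that acts on cholesterol sulfate, had 53.2 CPM at day 14, against 20.3 CPM at day 13 (ratio 1.30). ABCA12, the lipid transporter of keratinocytes, had 1009.8 CPM at day 14, against 701 CPM at day 13 (ratio 0.76), and was no longer past 1.5-fold without the median scaling. ELOVL1, an elongase of very long fatty acids, had a ratio of 0.68. SPTLC3, a subunit of the enzyme that starts sphingolipid synthesis, had 919 CPM at day 14, against 742 CPM at day 13 (ratio 0.54), under the threshold. Without the median scaling 2 of the 12 were higher and 1 lower, against 341 and 897 of all 6717 genes.

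Most junction genes stood near the median gene in the sums, before subtraction of majority-globin levels. Of 16 compared, 2 were higher, against 9.68% of all genes, and none lower, with a median of 0.067. After the subtraction 5 were higher, against 613 of all 3305 genes compared there. CLDN1, a tight junction claudin of the epidermal barrier, had 394 CPM at day 14, against 201 CPM at day 13 (ratio 1.17, interval 1.09 to 1.26). PPL, which encodes periplakin of the cornified envelope and desmosomes, had 241 CPM at day 14, against 183 CPM at day 13 (ratio 0.61), and was under 1.5-fold without the median scaling. DSP, the desmosomal plaque protein desmoplakin, had 678 CPM at day 14, against 886 CPM at day 13 (ratio -0.14), and 209 and 738 CPM in majority-globin barcodes. Its ratio was 1.80 after subtraction of those levels, the opposite direction. GJA1, the gap junction protein connexin 43, had 1250.3 CPM at day 14, against 1334 CPM at day 13 (ratio 0.15), and 532 and 1512 CPM in majority-globin barcodes. The subtraction left no GJA1 at day 13, so its ratio of 6.38 there was set by the added 10 CPM.

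Alpha-keratins, the intermediate filament keratins shared with mammals, differed in both directions. Of 9 compared, 2 were higher and 2 lower, against 9.68% and 4.63% of all genes, with a median of -0.33. KRT23 and KRT80, keratins of differentiated epithelia, had 85.8 against 52.0 CPM and 83.7 against 52.8 CPM (day 14 against day 13), with ratios of 0.87 and 0.81. KRT80 was under 1.5-fold without the median scaling, at 0.58. KRT5, the type II keratin of basal keratinocytes, had 69.3 CPM at day 14, against 138 CPM at day 13 (ratio -0.67). KRT17, a type I keratin, had 145 CPM at day 14, against 276 CPM at day 13 (ratio -0.64). Neither KRT5 nor KRT17 was past 1.5-fold in nuclei with epithelial markers, at -0.50 and -0.45, or after subtraction of majority-globin levels, at -0.19 for both. KRT14, the basal partner of KRT5, had 128 CPM at day 14, against 203 CPM at day 13 (ratio -0.39). Without the median scaling 1 alpha-keratin was higher and 4 were lower, against 341 and 897 of all 6717 genes.

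**Figure D4:**
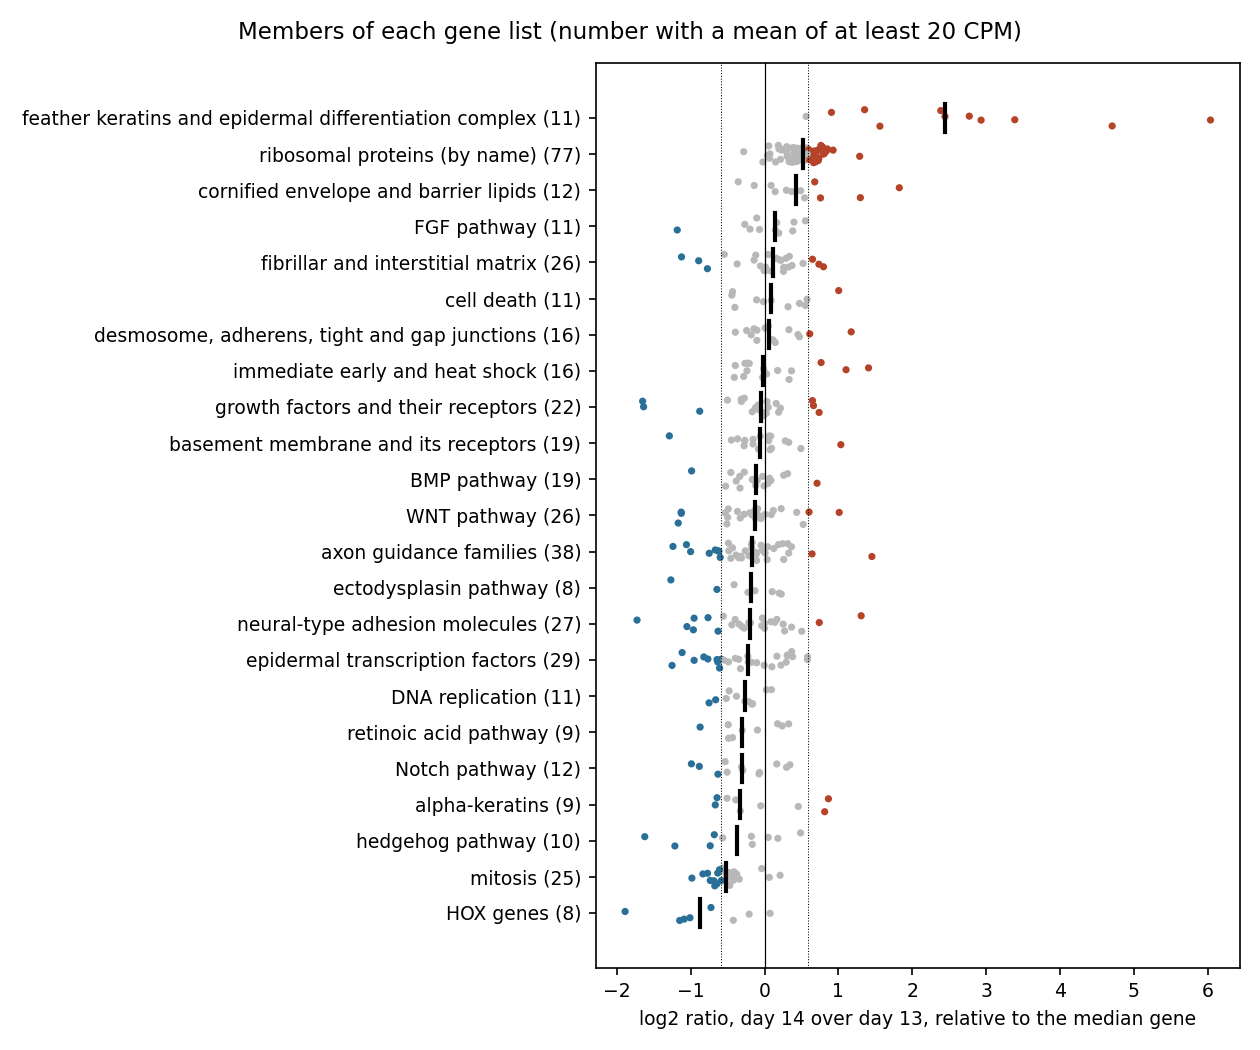
Relative log2 ratio of every member with a mean of at least 20 CPM (points), in each list (rows, with the number of members), with the list's median as a bar and dotted lines at 1.5-fold. Red points are at least 1.5-fold higher at day 14 and blue points at least 1.5-fold lower, and the feather keratin and EDC list, with a median of 2.44, lies apart from the others.

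Several genes of the hedgehog pathway were lower at day 14. SHH is a ligand that helps to pattern the future barbs, PTCH1 is its receptor and also its target, and HHIP binds and sequesters it. Of 10 members compared, 4 were at least 1.5-fold lower, against 4.63% of all genes, none was higher, and the median was -0.37. In nuclei with epithelial markers 4 were lower, against 375 of all 6536 genes compared there. Without the median scaling 5 were lower, against 897 of all 6717 genes.

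SHH had 1403 UMIs at day 14, or 82.2 CPM (78.0 to 86.6), against 3840 UMIs at day 13, or 242 CPM (235 to 250.0). Its ratio was -1.21 (interval -1.33 to -1.10) in all nuclei and -1.17 in nuclei with epithelial markers. Majority-globin barcodes held 23.1 CPM of SHH at day 14 and 125 CPM at day 13. HHIP had 78.0 CPM at day 14, against 309.6 CPM at day 13 (ratio -1.62, interval -1.73 to -1.51), and PTCH1 had 102 CPM at day 14, against 209 CPM at day 13 (ratio -0.74, but -0.55 and under the threshold in nuclei with epithelial markers). SCUBE2, which helps to release SHH from the cell surface, had 22.8 CPM at day 14, against 52.0 CPM at day 13 (ratio -0.68). The transcription factors of the pathway stood nearer the median gene. GLI2 had 434 CPM at day 14, against 765 CPM at day 13 (ratio -0.57), under the threshold. Its ratio was -0.66, past the threshold, in nuclei with epithelial markers. In those with mesenchymal markers it was 0.28, at 1307 CPM at day 14, against 1208 CPM at day 13. GLI3 had 463 CPM at day 14, against 483 CPM at day 13 (ratio 0.18).

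WNT genes were divided. Of 26 compared, 3 were lower and 2 higher, against 4.63% and 9.68% of all genes, and the median was -0.13. AXIN2, a negative regulator that WNT signalling itself induces, had 124 CPM at day 14, against 344 CPM at day 13 (ratio -1.17, interval -1.26 to -1.07). The ligand WNT3A had 34.2 CPM at day 14, against 104 CPM at day 13, and WNT6 had 34.8 CPM at day 14, against 105 CPM at day 13, with ratios of -1.13 for both. RSPO2, a secreted WNT enhancer, had 32.2 CPM at day 14, against 14.7 CPM at day 13 (ratio 1.01), and the ligand WNT5B had a ratio of 0.60. LGR4, a receptor for R-spondins, had 1227 CPM at day 14, against 1069 CPM at day 13 (ratio 0.43). Without the median scaling 8 WNT genes were lower and 1 higher, against 897 and 341 of all 6717 genes.

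In the Notch list, 3 of 12 were lower, against 4.63% of all genes, and none higher. NOTCH1, a receptor, had 140.2 CPM at day 14, against 342 CPM at day 13 (ratio -0.99), and its ratio was -1.23 to -0.29 over the alternatives, no longer past 1.5-fold after subtraction of majority-globin levels. JAG2, a Notch ligand, had 417 CPM at day 14, against 919 CPM at day 13 (ratio -0.88, interval -0.94 to -0.83), while the receptor NOTCH2 had 656 CPM at day 14, against 818 CPM at day 13 (ratio -0.076). In the ectodysplasin list, 2 of 8 were lower, against 4.63% of all genes. The ligand EDA, which acts in the placodes that start feathers and hair, had 20.1 CPM at day 14, against 75.5 CPM at day 13 (ratio -1.27, interval -1.44 to -1.09). Its receptor EDAR had 35.8 CPM at day 14, against 74.4 CPM at day 13 (ratio -0.64), and -0.40, under the threshold, in nuclei with epithelial markers.

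Among FGF genes, 1 of 11 was lower, against 4.63% of all genes, and none higher. FGF9, a secreted growth factor, had 7.27 CPM at day 14, against 36.2 CPM at day 13, from 124 and 574 UMIs (ratio -1.18). FGF9 reached the minimum of 20 CPM only through day 13, which fixed its call as lower. The count of lower FGF genes was 0 with a minimum of 50 CPM and 2 with no minimum. Without barcodes over 20000 UMIs it was 0. The receptors FGFR2 and FGFR3 were abundant and near the median gene, with 972 against 1316 CPM and 930.3 against 1325 CPM and ratios of -0.20 and -0.27. In the BMP list, 1 of 19 was lower and 1 higher, against 4.63% and 9.68% of all genes. ACVR2B, a type II receptor, had 73.1 CPM at day 14, against 184 CPM at day 13 (ratio -0.99), and ID3, a BMP target gene, had 105 CPM at day 14, against 72.7 CPM at day 13 (ratio 0.71, but 0.47 and under the threshold without the median scaling). Without the median scaling 4 BMP genes were lower and none higher, against 897 and 341 of all 6717 genes. In the retinoic acid list, 1 of 9 was lower, against 4.63% of all genes. It was DHRS3, a retinaldehyde reductase, at 81.8 CPM at day 14, against 188 CPM at day 13 (ratio -0.87).

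Growth factors and their receptors had 3 lower and 3 higher members of 22, against 4.63% and 9.68% of all genes. KITLG, the KIT ligand that supports melanocytes, had 132 CPM at day 14, against 512 CPM at day 13 (ratio -1.64, interval -1.72 to -1.55). NRG2, a ligand of the ERBB receptors, had 39.5 CPM at day 14, against 174 CPM at day 13 (ratio -1.65), and IGF2, an insulin-like growth factor, had 9.08 CPM at day 14, against 31.4 CPM at day 13 (ratio -0.88). TGFB3, HGF and VEGFA were higher, with ratios of 0.74, 0.66 and 0.65, and none of these was past 1.5-fold without the median scaling. EGFR, the receptor for epidermal growth factor, had 3693 CPM at day 14, against 4371 CPM at day 13 (ratio -0.0048), so the most abundant receptor of the list stood at the median gene.

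**Figure D5:**
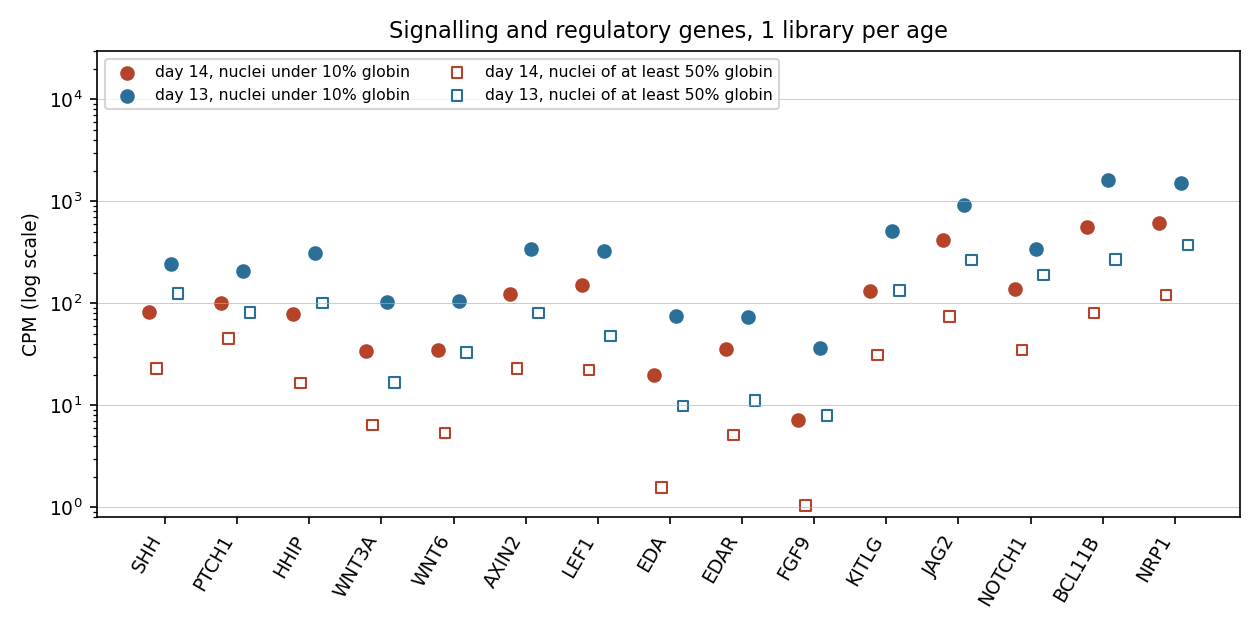
CPM (vertical axis, log scale) of 15 signalling and regulatory genes in nuclei under 10% globin (filled circles) and in majority-globin barcodes (open squares), at day 14 and day 13. Every gene shown has a lower filled circle at day 14, for SHH at 82.2 against 242 CPM, and the open squares lie below the circles of the same library. The 15 are a selection, and members of the same lists that were higher, such as RSPO2, ID3 and TGFB3, are not shown.

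Epidermal transcription factors were lower in part. Of 29 compared, 9 were lower, against 4.63% of all genes, and none higher, with a median of -0.23. The 9 were BCL11B, POU2F3, GATA2, LEF1, EHF, NFIB, GRHL3, TFAP2A and KLF5. BCL11B, which acts in mammalian epidermal development, had 9654 UMIs at day 14 (566 CPM), against 25483 UMIs at day 13 (1607 CPM), a ratio of -1.25 (interval -1.30 to -1.21). POU2F3, a POU factor of epidermis, had 112 CPM at day 14, against 302 CPM at day 13 (ratio -1.12). LEF1, a transcription factor of WNT signalling in skin appendages, had 151 CPM at day 14, against 326 CPM at day 13 (ratio -0.82). GATA2 had 26.1 CPM at day 14, against 72.5 CPM at day 13, below the 142 and 122 CPM of majority-globin barcodes, so no ratio was left once those levels were subtracted. TP63, the regulator of stratified epithelium, had 412 CPM at day 14, against 719 CPM at day 13 (ratio -0.55), under the threshold. TRPS1, the most abundant factor named here, had 8254 CPM at day 14, against 7479 CPM at day 13 (ratio 0.38). In nuclei with epithelial markers 5 of the list were lower and 1 higher, against 375 and 598 of all 6536 genes. Without barcodes over 20000 UMIs 5 were lower, against 257 of 6716. Without the median scaling 13 were lower, against 897 of all 6717 genes.

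HOX genes, which give cells their position along the body axis, had the lowest median of all lists at -0.87. Of 33 entries, 8 reached the minimum, of which 5 were lower, against 4.63% of all genes, and none higher. HOXA9 had 18.2 CPM at day 14, against 113 CPM at day 13 (ratio -1.89, interval -2.05 to -1.72), the lowest of the named ratios. HOXA3 had 146 CPM at day 14, against 397 CPM at day 13, HOXC6 had 78.9 CPM at day 14, against 213 CPM at day 13, and HOXA4 had 27.9 CPM at day 14, against 80.1 CPM at day 13. HOXB3 and HOXB4 stood near the median gene, with ratios of 0.075 and -0.21. The same count of 5 was lower in nuclei with epithelial markers, against 375 of all 6536 genes compared there. HOXC6 was -1.59 there, and -0.056 in nuclei with mesenchymal markers.

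Part of the cell cycle genes was lower at day 14. Of 53 entries in the mitosis list, 25 reached the minimum, with 10 lower, against 4.63% of all genes, none higher and a median of -0.52. CENPF, a kinetochore protein, had 52.4 CPM at day 14, against 135 CPM at day 13 (ratio -0.98), but a ratio of -0.40 after subtraction of majority-globin levels. TOP2A, the topoisomerase of dividing cells, had 33.5 CPM at day 14, against 81.5 CPM at day 13 (ratio -0.83), and CENPE, a mitotic kinesin, had a ratio of -0.69. KIF11, the spindle kinesin, had 34.9 CPM at day 14, against 35.8 CPM at day 13 (ratio 0.21). The count of lower members depended on the processing. It was 3 after subtraction of majority-globin levels, against 394 of all 3305 genes compared there, fewer than the 6717 of the main setting. Without the barcodes over 20000 UMIs it was 6, against 257 of 6716. In nuclei with epithelial markers it was 7 of 24, against 375 of all 6536 genes. Without the median scaling it was 21, against 897 of all 6717 genes. In the DNA replication list, 2 of 11 were lower, against 4.63% of all genes, and none higher. HELLS, a chromatin remodeller, had 31.6 CPM at day 14, against 72.7 CPM at day 13. BRCA1, a repair protein, had 32.3 CPM at day 14, against 68.9 CPM at day 13. Neither was past 1.5-fold after that subtraction, at -0.52 and -0.31.

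Adhesion and guidance genes held more lower than higher members. In the list of neural-type adhesion molecules 6 of 27 were lower and 2 higher, against 4.63% and 9.68% of all genes, with a median of -0.19. ASTN2, astrotactin 2, had 54.5 CPM at day 14, against 242 CPM at day 13 (ratio -1.73, interval -1.85 to -1.60). NRCAM had 359 CPM at day 14, against 892 CPM at day 13, and CADM1 had 183 CPM at day 14, against 433 CPM at day 13, both members of the immunoglobulin superfamily, with ratios of -1.05 and -0.96. CDH18, a classical type II cadherin, had 96.5 CPM at day 14, against 40.7 CPM at day 13 (ratio 1.31). Among 38 axon guidance genes, 8 were lower, against 4.63% of all genes, and 2 higher. The lower count was 14 without the median scaling, against 897 of all 6717 genes. It was 4 when nuclei were thinned to 1000 UMIs, against 272 of 6731. NRP1, a co-receptor for semaphorins and VEGF, had 612 CPM at day 14, against 1517 CPM at day 13 (ratio -1.06, interval -1.10 to -1.01), and SEMA3G, a secreted semaphorin, had 13.7 CPM at day 14, against 55.9 CPM at day 13 (ratio -1.24). SEMA3D had 356 CPM at day 14, against 148 CPM at day 13, below the 1298 and 1035 CPM of majority-globin barcodes, which left no ratio after subtraction.

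Few matrix genes passed the threshold in the sums. In the basement membrane list, 1 of 19 was lower and 1 higher, against 4.63% and 9.68% of all genes. NID1, the basement membrane linker nidogen, had 55.0 CPM at day 14, against 177 CPM at day 13 (ratio -1.29), and 18.5 and 113 CPM in majority-globin barcodes, whose subtraction left a ratio of -0.48. The NID1 ratio was -0.56, under the threshold, in nuclei with mesenchymal markers and -1.85 in those with epithelial markers. ITGB6, an epithelial integrin subunit, had 43.8 CPM at day 14, against 21.0 CPM at day 13 (ratio 1.03). After that subtraction 6 basement membrane genes were higher and none lower, against 613 and 394 of all 3305 genes compared there. The basement membrane list summed to 1846 CPM at day 14 and 2301 CPM at day 13, and to 496 and 1120 CPM in majority-globin barcodes. The subtraction thus took more from day 13. In the interstitial matrix list, 3 of 26 were lower and 3 higher, against 4.63% and 9.68% of all genes, with a median of 0.12. Without the median scaling 5 were lower and none higher, against 897 and 341 of all 6717 genes. In nuclei with epithelial markers 8 of 14 were lower and none higher, against 375 and 598 of all 6536 genes. Members such as COL1A1 are also mesenchymal markers, whose counts helped to set the marker classes. After subtraction of majority-globin levels 10 of the list were higher, against 613 of all 3305 genes compared there. Among the 10 was COL1A1, which had no level left at day 13. HAPLN1, a hyaluronan link protein, had 24.0 CPM at day 14, against 77.5 CPM at day 13 (ratio -1.12). Its ratio was -0.48, under the threshold, in nuclei with mesenchymal markers and -1.40 in those with epithelial markers. TNC, tenascin C, had 50.4 CPM at day 14, against 31.0 CPM at day 13 (ratio 0.80), at 0.56 without the median scaling, 1.60 in nuclei with mesenchymal markers and 0.12 in those with epithelial markers. COL1A1, the main fibrillar collagen chain, had 319 CPM at day 14, against 411 CPM at day 13 (ratio -0.12), at 0.98 in nuclei with mesenchymal markers and -1.14 in those with epithelial markers. Majority-globin barcodes held 196 CPM of COL1A1 at day 14 and 682 CPM at day 13. Its ratio ran from -1.14 to 3.92 over the alternatives, the last after subtraction of those levels. The subtraction left nothing at day 13, so the size of 3.92 was set by the added 10 CPM and is not a measured change.

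Stress and survival genes were mostly near the median gene. In the immediate early and heat shock list, 3 of 16 were higher, against 9.68% of all genes, and none lower. GADD45A, induced by growth arrest and DNA damage, had 237 CPM at day 14, against 99.5 CPM at day 13 (ratio 1.41, interval 1.30 to 1.52), and FOSL2, an AP-1 subunit, had 218 CPM at day 14, against 115 CPM at day 13 (ratio 1.10). BTG2, an antiproliferative gene, had 112 CPM at day 14, against 74.7 CPM at day 13, below the 134 and 199 CPM of majority-globin barcodes, which left no ratio after subtraction. Heat shock chaperones were under the threshold, as HSP90AA1 at 231 CPM at day 14, against 323 CPM at day 13 (ratio -0.23). In the cell death list, 1 of 11 was higher, against 9.68% of all genes. It was BCL2L1, an inhibitor of apoptosis, at 80.7 CPM at day 14, against 43.3 CPM at day 13. Both levels lay below the 305 and 228 CPM of majority-globin barcodes, which left no ratio after subtraction.

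Ribosomal protein genes, grouped by name after their values had been seen, had mostly positive ratios. Of 77 compared, 27 were at least 1.5-fold higher, against 9.68% of all genes, and none lower, 75 had a positive ratio, and the median was 0.52. They summed to 24997 CPM at day 14 and 19955 CPM at day 13, against 109996 and 101103 CPM in majority-globin barcodes.

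The remaining genes among the 15 lowest ratios have varied roles. HS3ST5, which adds sulfate to heparan sulfate, had 86.3 CPM at day 14, against 350.5 CPM at day 13 (ratio -1.67). TRPM3, a cation channel, and KCNQ3, a potassium channel subunit, had ratios of -1.48 and -1.33. NAALADL2, a member of the N-acetylated alpha-linked acidic dipeptidase family, had 159 CPM at day 14, against 531 CPM at day 13 (ratio -1.44). SPO11, the endonuclease that makes meiotic DNA breaks, had 11.4 CPM at day 14, against 64.9 CPM at day 13, from 194 and 1029 UMIs. EMID1, an EMI domain gene, had 10.8 CPM at day 14, against 51.3 CPM at day 13, with 3.41 and 41.2 CPM in majority-globin barcodes, and was not past 1.5-fold after subtraction of those levels. The W-linked gene HINTW, present only in female birds, had 1115 CPM at day 14, against 1785 CPM at day 13 (ratio -0.44), and 1304 and 1761 CPM in majority-globin barcodes. W-linked HNRNPKL had 110.1 CPM at day 14, against 147 CPM at day 13 (ratio -0.15), and 121 and 129.9 CPM in majority-globin barcodes. Both libraries thus held RNA of female embryos.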

How the data were processed

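The deposited values are raw UMI counts for each gene in each barcode. The authors made those of both nuclear libraries with Cell Ranger 7.0.0, per the file headers. The submitters' processing notes list Cell Ranger 7.0.0 and the build GRCg6a. Whether intronic reads were counted is not given in the sources used here. UMIs were summed per library over the nuclei, CPM were taken without 7 globin and 13 mitochondrial genes, and ratios were formed with 10 CPM added, over genes with a mean of at least 20 CPM (Python 3.11.15, numpy 2.4.6, pandas 2.3.3, scipy 1.17.1; Scrublet in scanpy 1.11.5; TMM factors from edgeR 4.0.16; figures with matplotlib 3.10.9). Intervals are exact Poisson or Clopper-Pearson 95% intervals, and a ratio's interval joins the outermost limits of its 2 CPM intervals. With 1 library a side there was no test. The calculation was tested on simulated data.

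Named genes were the 15 highest and 15 lowest ratios among genes with a symbol and the same direction under 15 other settings fixed with the lists, up to 6 members of each list by ratio or level, and SHH, F-KER, KRTAP10-4, EDMPN2, HINTW and HNRNPKL. 1 gene is not reported here, though it stays in the counts over all genes. Other list members are named for their role and were chosen after their values were seen. The members and lists were chosen with earlier results of these data known. Gene names come from the files. A few list symbols were matched through RefSeq synonyms (GRCg7b). No sequence or coordinates are given.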

Additional observations from a re-analysis of the deposited data

How the results depend on the processing

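Of 17 alternatives, 2 were chosen after seeing the data (leaving out nuclei over 20000 UMIs, and subtracting the CPM of majority-globin barcodes). Under the 16 without the subtraction, 646 of the 650 higher and all 311 lower genes kept their direction. Fewer stayed past 1.5-fold: 484 and 201 when nuclei were thinned to 1000 UMIs, and 481 and 215 by the mean of each nucleus's own CPM. After the subtraction 404 of the 650 and 248 of the 311 still reached 20 CPM, of which 397 and 186 were still past 1.5-fold in the same direction. Without the median scaling 341 genes were higher and 897 lower. With a minimum of 50 CPM, which left 3825 genes, 451 were higher and 203 lower. With no minimum, over 15533 genes and with a median gene of -0.090, 549 were higher and 693 lower, and the cause was not tested. Nuclei with epithelial markers gave 598 higher and 375 lower, of which 547 and 237 were shared with the sums over all nuclei. Without nuclei over 20000 UMIs the counts were 577 and 257. Of the 77 named genes past 1.5-fold, 9 were no longer past it after the subtraction, and 6 (ANKH, GATA2, SEMA3D, CDC25B, BTG2 and BCL2L1) had no ratio there because both levels came to 0. With thinning 9 of the 77 were no longer past it, by the mean of each nucleus's own CPM 9, without the median scaling 6 and in nuclei with epithelial markers 6. No paired analysis was possible because each age had 1 library, which also left no replicate to leave out. Genes under 20 CPM were not compared.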
